A study of Sus scrofa with 6 samples.

Results

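ZP2, ZP3 and ZP4 encode the glycoproteins of the pig zona pellucida, and their transcripts were followed here through 3 titled stages of ovarian follicles. The genes were taken as every probe set (a group of short probes read together as 1 value) whose platform annotation gives a single zona symbol. This gave 3 of 23999 probe sets, 1 for each gene, and 0 probe sets named a zona gene together with another gene. The gene identifiers were 396846 for ZP2, 396927 for ZP3 and 397111 for ZP4. RefSeq also lists the older names ZPA for ZP2, ZPC for ZP3 and ZPB or ZP3-ALPHA for ZP4.

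The zona pellucida is the extracellular coat that the growing oocyte secretes around itself. Its proteins share a ZP domain, through which they assemble into filaments, and the finished coat takes part in sperm binding and in the block to further sperm after fertilization. Zona genes are switched on by oocyte transcription factors such as FIGLA, and the coat is laid down as a follicle leaves the primordial state and its oocyte grows.

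Follicles came from ovaries of prepubertal gilts, young female pigs before puberty, and were sorted by shape and diameter. The groups were primordial, middle stage and last stage follicles, with 2 single-channel Affymetrix porcine arrays each, titled as biological replicates, and 6 arrays in all. No treatment or genotype is named, and the sources used here give neither ages, diameters, nor the number of animals behind a sample. The p-values therefore measure only the spread between these samples, and 2 arrays per stage limit the precision. A separate description calls all 6 samples primordial, and only the titles give the stages. The RNA was that of follicles, which hold somatic cells besides the oocyte, so fewer oocytes and less RNA per oocyte cannot be told apart.

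Pearson's r of log2 values across probe sets was 0.964 to 0.972 for the arrays of 1 stage and 0.862 to 0.935 for arrays of different stages. As probe sets do not count as replicates, these values only describe the arrays. The median signal of an array was 119 to 169.9. All differences were taken on log2(signal + 16) and carry the standard error of a limma fit to all 6 arrays (n = 2 per stage). This scale understates the change of dim probe sets. A difference was called at a Benjamini-Hochberg adjusted p under 0.05 over the 14399 probe sets tested.

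All 3 zona genes were bright on the middle arrays and dim on the arrays of both other stages. ZP2, which stays in the coat after fertilization in a cleaved form, had a signal of 1800.1 and 2200.3 on the middle arrays. It had 21.9 and 22.9 on the arrays titled primordial and 40.6 and 42.1 on the last arrays. The middle arrays lay far above the others, and the last arrays lay just above the primordial arrays without overlap.

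ZP3, a partner of ZP2 and ZP4 in the filaments, gave 2427.3 and 2635.3 on the middle arrays. Its signal was 67.4 and 75.5 on the primordial arrays and 121 and 118.9 on the last arrays. The order of stages was that of ZP2, and again no stage overlapped another.

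ZP4, the zona protein that mice lack as a functional gene, gave 3774.9 and 4616.3 on the middle arrays. Its signal was 56.6 and 50.5 on the primordial arrays and 103.5 and 117.2 on the last arrays. The middle arrays were again far above the rest. Signals of different probe sets also depend on their probes, so the order of the genes within a stage was not read as an order of transcript abundance.

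**Figure D1:**
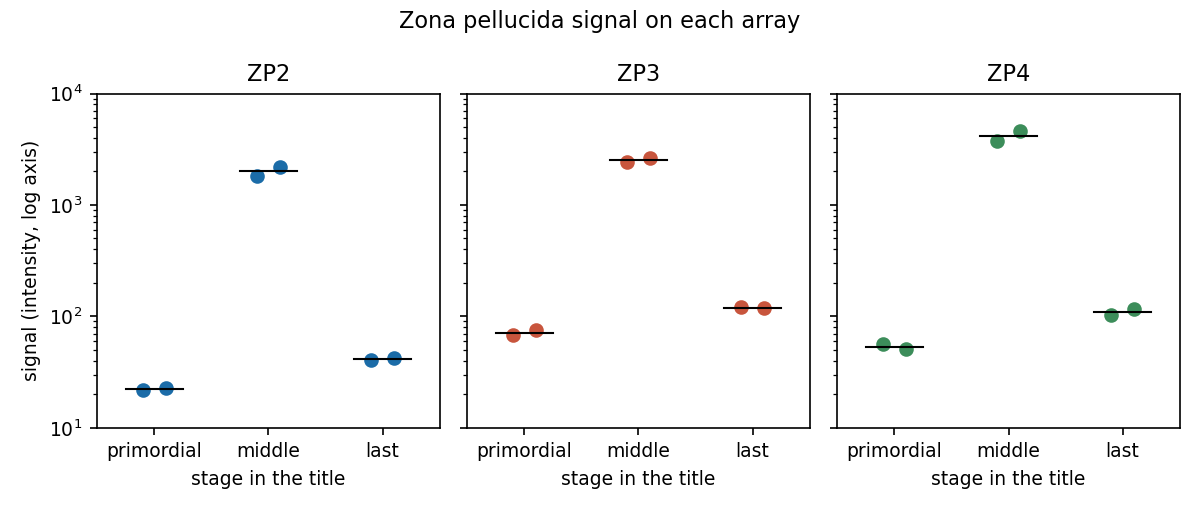
Signal of ZP2, ZP3 and ZP4 on each array (points; log axis, intensity as deposited) with the mean of the 2 arrays of a stage (line). The middle arrays read from 1800.1 to 4616.3, while the primordial and last arrays read from 21.9 to 121.

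The place of a signal among all probe sets of its array shows how dim the low values were. On the primordial arrays ZP2 was brighter than 20.4% and 22.0% of probe sets, ZP4 than 33.4% and 37.4%, and ZP3 than 40.5% and 40.9%. On the last arrays ZP2 was brighter than 27.5% and 28.5%, while ZP3 and ZP4 lay between 44.8% and 47.5%. The zona probe sets thus sat in the dimmer part of the signal range at both ends of the series. On the middle arrays they were brighter than 91.2% to 97.5% of probe sets.

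The mean signal on the last arrays was 2.07% of the middle mean for ZP2, 4.74% for ZP3 and 2.63% for ZP4. On the primordial arrays it was 1.12%, 2.82% and 1.28%. No detection call was used, so these shares include whatever background remained in the deposited signals. The filter on dim probe sets, which left out those with a mean below 91.3 over 6 arrays, was passed by each zona gene. Without the middle arrays the means would have been 31.9 for ZP2, 95.7 for ZP3 and 82.0 for ZP4, so ZP2 and ZP4 passed only through the middle arrays. With no filter at all, each gene was still called in the comparisons of the middle arrays with either other stage.

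Middle were first set against primordial follicles, the stage titled as the earliest. ZP4 was higher in the middle arrays by 5.91 ± 0.23 (limma adjusted p = 9.39e-07), which is 60.3-fold on this scale. ZP2 was higher by 5.71 ± 0.27 (adjusted p = 2.47e-06), or 52.3-fold, and ZP3 by 4.86 ± 0.22 (adjusted p = 2.07e-06), or 29.1-fold. As ratios of the mean signals the same differences were 78.3, 89.3 and 35.4. Of all probe sets tested 47.4% were called and 29.7% were called higher in the middle arrays, and the median difference was 0.22, so a call alone was common in this comparison. In size the zona genes ranked 11, 13 and 27 from the top of 14399. Of the 6821 calls 62.7% were higher, against 53.2% with quantile normalization and 36.6% after median centring of each array, a step that moved the median difference by -0.41. The number of calls was 4356 without middle replicate 1. Over 15 alternative settings the difference stayed between 5.17 and 6.26 for ZP4, 4.57 and 6.41 for ZP2, and 4.26 and 5.13 for ZP3, with a highest adjusted p of 0.000477.

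Last were then set against middle follicles, a comparison that shares the middle arrays with the first. ZP2 was lower in the last arrays by 35.0-fold, at -5.13 ± 0.27 (limma adjusted p = 9.46e-06). ZP4 was lower by 33.2-fold, at -5.05 ± 0.23 (adjusted p = 5.28e-06), and ZP3 by 18.7-fold, at -4.23 ± 0.22 (adjusted p = 9.46e-06). Of the probe sets tested 17.2% were called and 9.94% were called lower, and the median difference was -0.07. The zona genes ranked 5, 8 and 29 from the lowest of 14399. Of the 2481 calls 42.3% were higher, against 62.9% with median centring. The number of calls fell to 727 without middle replicate 1 and to 1440 without middle replicate 2, but the zona genes passed in both, with differences between -5.27 and -4.17.

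Last and primordial follicles were both dim for the zona genes, and this comparison asked whether the ends of the series differed. ZP4 was higher in the last arrays by 0.86 ± 0.23 (limma adjusted p = 0.0188), or 1.82-fold. The differences of ZP3, at 0.64 ± 0.22 (adjusted p = 0.0513), and ZP2, at 0.58 ± 0.27 (adjusted p = 0.135), did not pass. Of the probe sets tested 33.2% were called and 19.8% were called higher, and the median difference was 0.14. The ZP4 call was lost with quantile normalization (0.65, adjusted p = 0.0589), with median centring of each array (0.64, adjusted p = 0.0665) and with a pseudocount of 64 (0.57, adjusted p = 0.0531). It was also lost in the fit of 4 arrays (adjusted p = 0.0831) and without primordial replicate 1 (0.92, adjusted p = 0.0548), primordial replicate 2 (0.80, adjusted p = 0.0896) or last replicate 2 (0.78, adjusted p = 0.0593), in a range of adjusted p from 0.0119. ZP3 passed with a pseudocount of 1 (0.74, adjusted p = 0.0370) and without the intensity trend (adjusted p = 0.0439), in a range up to 0.195. All 3 differences stayed above 0 in each of the 15 settings. Of the 4786 calls of this comparison 59.7% were higher, against 39.0% with median centring. There were 2900 calls without primordial replicate 1 and 2730 without primordial replicate 2.

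**Figure D2:**
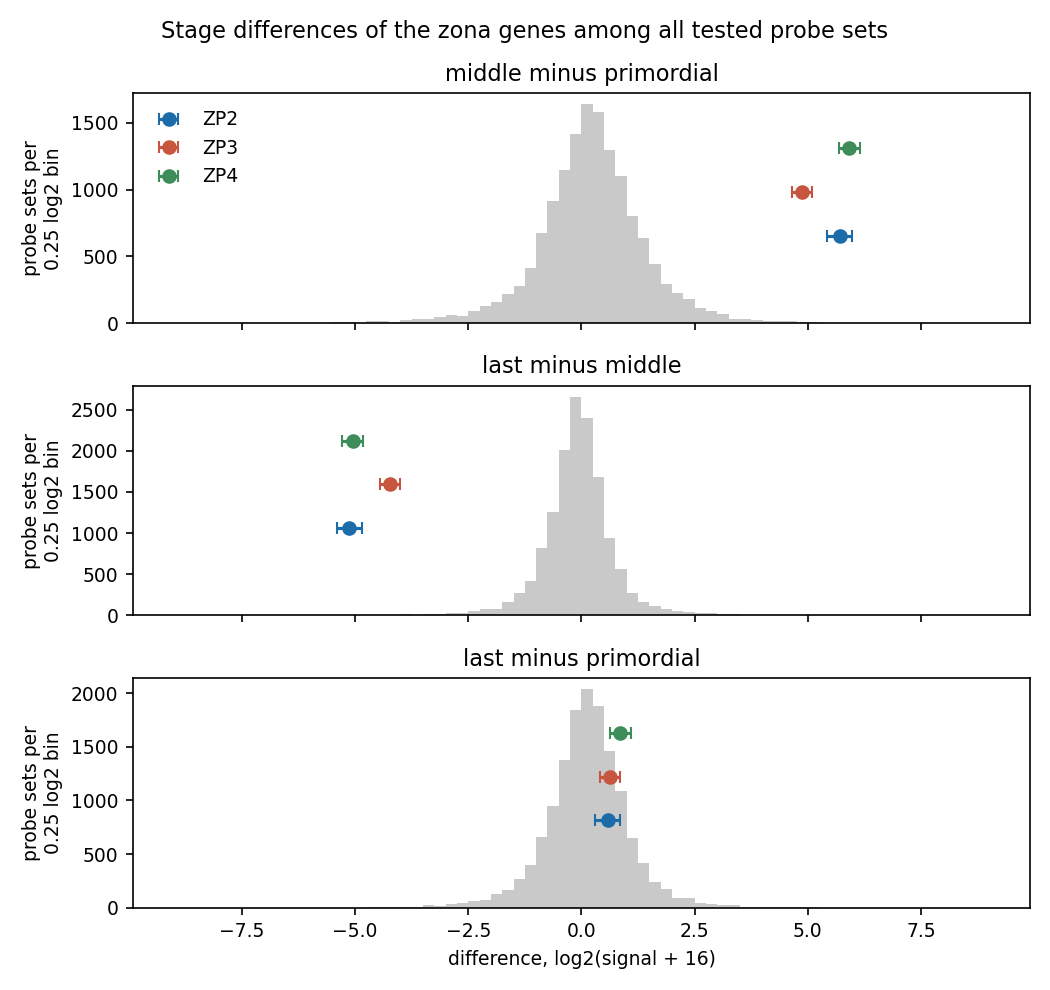
Differences of ZP2, ZP3 and ZP4 (points, ± standard error of the limma fit, placed at arbitrary heights) over the histogram of the differences of all 14399 tested probe sets, in log2(signal + 16). In both comparisons with the middle arrays the zona genes lie in the outer tails, at 4.86 to 5.91 and at -5.13 to -4.23, and in last minus primordial within the bulk, at 0.58 to 0.86.

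**Figure D3:**
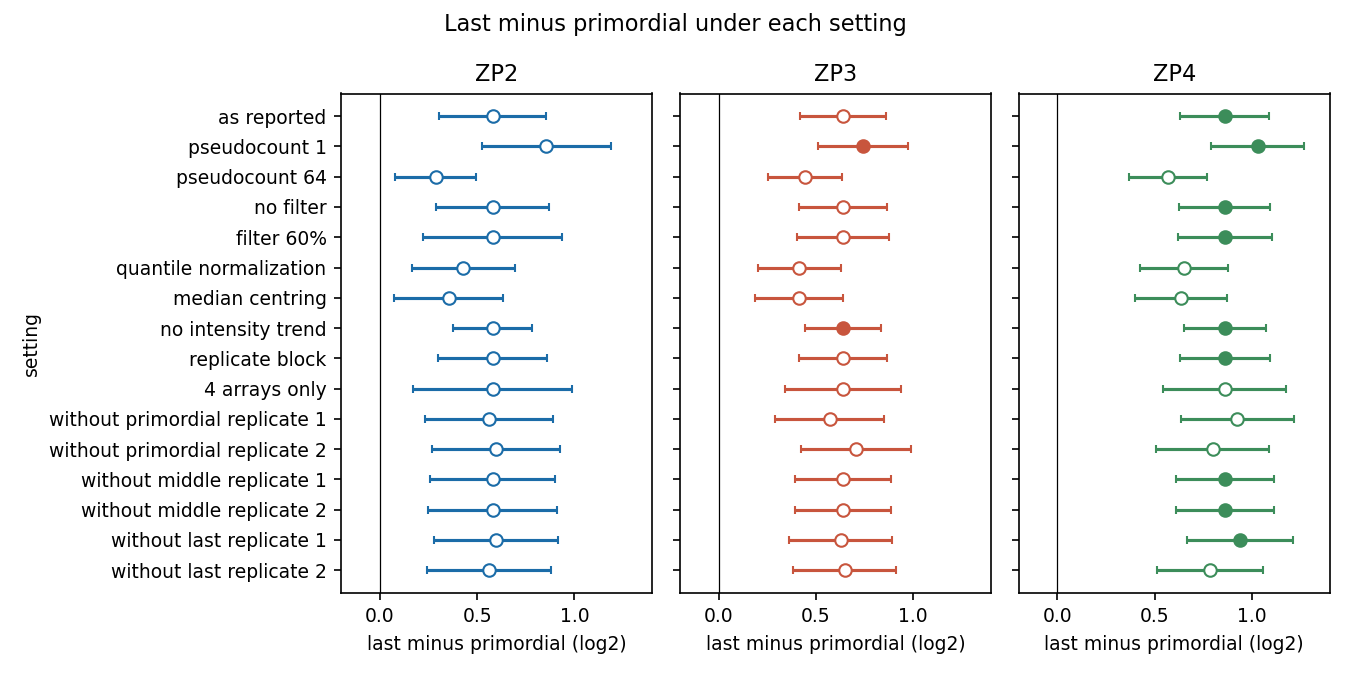
Last minus primordial difference (log2, ± standard error) of each zona gene as reported and under 15 alternative settings; filled points have an adjusted p under 0.05. ZP2 passed in none, ZP3 in 2 and ZP4 in the reported setting and 8 others.

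By level, each zona gene was therefore highest in middle, then last, then primordial follicles. The middle stage differed from both neighbours beyond the spread of the arrays. The order of last and primordial did not pass for ZP2 and ZP3, and for ZP4 it rested on the setting. Against the mean of the other stages the middle arrays were higher by 5.48 ± 0.20 for ZP4, 5.42 ± 0.24 for ZP2 and 4.55 ± 0.19 for ZP3, with limma adjusted p of 1.02e-06 to 1.53e-06. In this contrast 37.5% of probe sets were called and 23.5% were called higher, and its 5399 calls fell to 2037 without middle replicate 1. The F-test over the 3 stages (limma) gave each zona gene an adjusted p of 1.9e-06 to 3.83e-06, where 50.3% of probe sets were called.

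The zona genes were also compared with each other. Each pair was compared within arrays and set against its mean on the middle arrays. The pseudocount of 16 is added after an array's scaling, so this scaling does not fully cancel for dim probe sets. ZP4 minus ZP2 stayed near the middle level, at -0.12 and -0.29 on the primordial arrays and 0.02 and 0.13 on the last arrays. ZP4 minus ZP3 was -0.92 and -1.18 on the primordial arrays and -0.92 and -0.74 on the last arrays. ZP3 minus ZP2 was 0.79 and 0.89 on the primordial arrays and 0.93 and 0.87 on the last arrays. On the middle arrays these 3 differences stayed within 0.09 of their mean. On each primordial and last array ZP3 thus lay nearer to its middle level than ZP2 and ZP4 did on this scale. These values are given as a description, with no test. At these signals the pseudocount of 16 also compresses ZP2, the dimmest of the genes at both ends, more than ZP3 and ZP4. With a pseudocount of 1, middle minus primordial was 6.41 for ZP2 and 6.26 for ZP4, against 5.71 and 5.91 with 16. The sign of ZP4 minus ZP2 on the primordial arrays thus depended on the pseudocount.

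**Figure D4:**
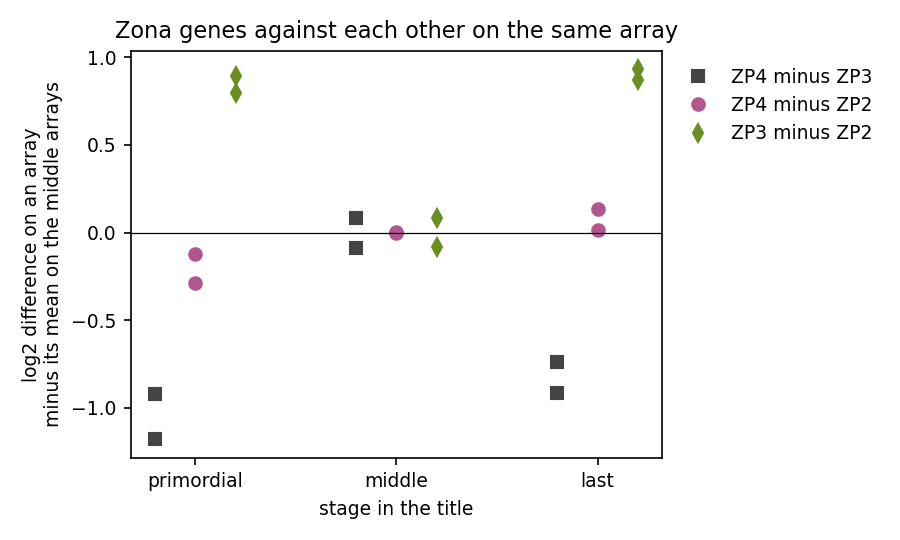
Log2(signal + 16) difference of each pair of zona genes on the same array, minus its mean on the middle arrays; each point is an array. ZP4 minus ZP2 lies between -0.29 and 0.13, while ZP4 minus ZP3 lies between -1.18 and -0.74 and ZP3 minus ZP2 between 0.79 and 0.93 on the primordial and last arrays.

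Other oocyte genes were compared to see where the zona genes stood among transcripts of the same cell. Of 30 genes on that list 11 were on the array and 8 passed the filter. Since some, such as PADI6, passed only through their middle signal, the counts were taken from the fit of all 23999 probe sets without the filter. In that fit 8 of the 11 were higher in the middle than in the primordial arrays and 1 was lower, where 19.1% of all probe sets were called higher and 10.2% lower. From middle to last 8 were lower and 1 higher, where 5.44% were called lower and 3.34% higher. In the filtered fit DPPA5, an RNA-binding protein of pluripotent cells and germ cells, was higher in the middle arrays by 7.50 ± 0.27 and then lower by -4.85 ± 0.27. WEE2, a kinase that keeps oocytes arrested in meiosis, gave 5.04 ± 0.28 and -4.00 ± 0.28. KPNA7, a nuclear import receptor of oocytes and early embryos, gave 5.96 ± 0.40 and -4.44 ± 0.40. PADI6, a protein of the oocyte's cytoplasmic lattices, gave 5.41 ± 0.42 and -4.82 ± 0.42, and H1FOO, the linker histone of oocytes, gave 4.06 ± 0.29 and -4.22 ± 0.29. GDF9, the growth factor through which the oocyte acts on granulosa cells, gave 3.16 ± 0.22 and -2.86 ± 0.22, with a limma adjusted p of 1.53e-05 for the first. Not every gene on the list had this course. KIT, the receptor for KIT ligand, was lower in the middle arrays by -2.55 ± 0.34 and then higher by 2.10 ± 0.34, its signal being 891.6 and 1887.3 in primordial, 170 and 254.9 in middle and 890.5 and 1006.5 in last follicles. GJA4, a gap junction protein of the oocyte and also of endothelium, did not pass in either, at 0.34 ± 0.49 and 1.25 ± 0.49. Of the 8 genes in the filtered fit, KIT was the 1 called higher from middle to last, and this count was 2 without either primordial replicate and 0 without middle replicate 1.

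BMP15, the other oocyte growth factor, NPM2, an oocyte chromatin protein, and DDX4, a germ cell RNA helicase, fell below the filter. Their signals on the middle arrays were 227.4 and 215.4 for BMP15, 84.5 and 81.9 for NPM2 and 37.2 and 63 for DDX4. On the other 4 arrays BMP15 ranged from 4.3 to 44.7, NPM2 from 2.8 to 6.1 and DDX4 from 2.5 to 24.8. Without the filter BMP15 was higher in the middle than in the primordial arrays by 3.04 ± 0.52 (limma adjusted p = 0.00355) and NPM2 by 2.23 ± 0.33 (adjusted p = 0.00181), while DDX4 did not pass at 1.28 ± 0.49 (adjusted p = 0.0859). From middle to last BMP15 (-2.58 ± 0.52, adjusted p = 0.0213) and NPM2 (-2.32 ± 0.33, adjusted p = 0.00489) were lower, and DDX4 did not pass (-1.10 ± 0.49).

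From primordial to last, 4 of the 8 oocyte genes in the filtered fit were higher and 0 lower by limma. Of all probe sets tested 19.8% were called higher and 13.4% lower. These were DPPA5 (2.65 ± 0.27), GJA4 (1.58 ± 0.49), KPNA7 (1.51 ± 0.40) and WEE2 (1.04 ± 0.28). DPPA5 had 4.9 and 6.3 on the primordial arrays and 96.7 and 147.1 on the last arrays. The count was 2 without primordial replicate 1 and 1 without either middle replicate or last replicate 1. GDF9, at 0.30 ± 0.22, did not pass, as ZP2 and ZP3 did not. DPPA5, KPNA7 and WEE2 passed the filter only through their middle signal. GJA4 passed it only through its last signal, with means of 80.95 on the primordial, 88.9 on the middle and 233.8 on the last arrays. All 4 calls thus rest in part on the filter. Without the filter 3 of the 11 oocyte genes were higher and 0 lower, where 4175 of 23999 probe sets were called in either direction. As that number covers both directions, the count of 3 was not read against it.

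Set against GDF9 on the same array, the zona genes lay farther from their middle level. Relative to the middle arrays, ZP2 minus GDF9 was -2.50 and -2.59 on the primordial arrays and -2.43 and -2.10 on the last arrays. ZP4 minus GDF9 was -2.63 and -2.88, then -2.42 and -1.97, and ZP3 minus GDF9 was -1.71 and -1.70, then -1.50 and -1.23. Every one of these values was below the middle arrays, which lay within 0.13 of their mean. They too are a description, with no test. GDF9 was the only reference used, and it read 137.3 and 150.6 on the primordial and 202 and 161.8 on the last arrays. Among oocyte genes higher in the middle than in the primordial arrays in the filtered fit, GDF9 moved least, by 3.16. H1FOO moved by 4.06 and DPPA5 by 7.50, so the values apply to GDF9 alone.

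**Figure D5:**
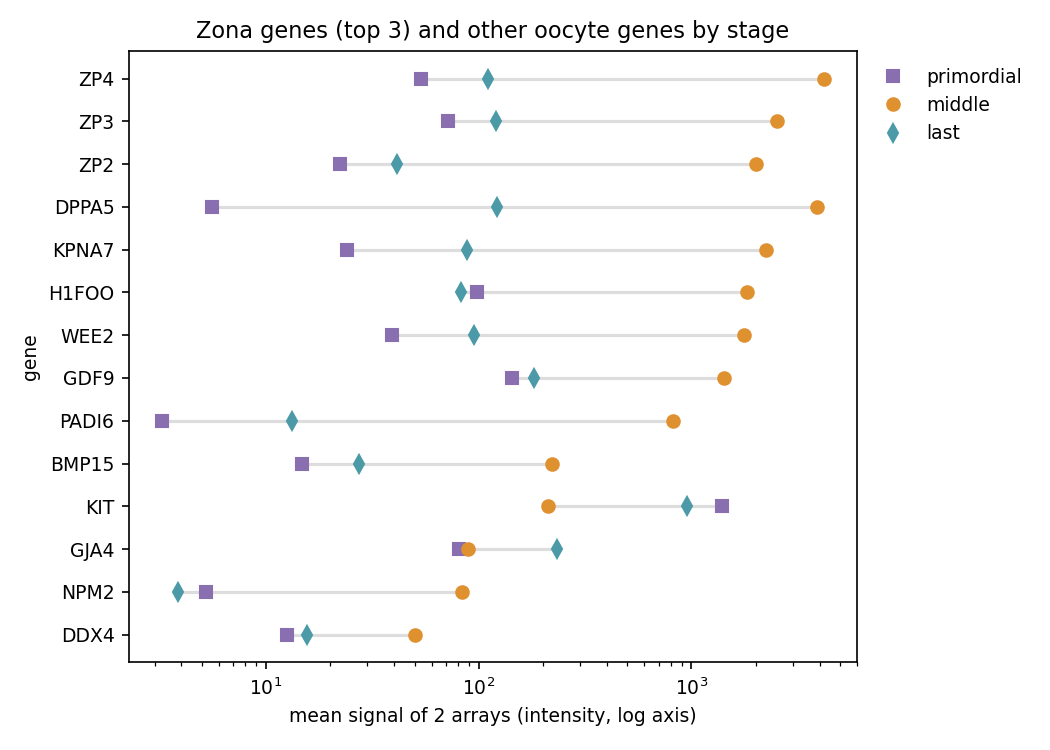
Mean signal of the 2 arrays of each stage (log axis) for the zona genes and the 11 other oocyte genes on the array. The middle mean is the highest for the 3 zona genes and for 9 of the 11 others, all but KIT and GJA4.

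The genes whose course over the 6 arrays was most like that of each zona gene were found among 5431 other genes. Likeness was the root mean square difference of the log2(signal + 16) values, each gene centred on its own mean. The gene nearest to ZP2 was ZP4, at 0.133. PADI6 followed at 0.216, then ZP3 (0.416), WEE2 (0.497) and FKBP6 (0.565), a chaperone-like protein of germ cells. The gene nearest to ZP4 was ZP2, followed by PADI6 (0.284), ZP3 (0.463), KPNA7 (0.483) and WEE2 (0.517).

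ZP3 had other genes nearer to it than its partners. KCNN3, a calcium-activated potassium channel, lay at 0.194, WEE2 at 0.218, FKBP6 and PADI6 both at 0.326, and ESRP1, an epithelial splicing regulator, at 0.341. ZP2 and ZP4 came at ranks 7 and 10. With quantile normalization all 5 nearest genes were the same for ZP3 and for ZP4, and 4 of 5 for ZP2, where KPNA7 replaced FKBP6. KCNN3 had a mean signal of 22.3 on the primordial arrays, 808 on the middle and 37.5 on the last arrays. FKBP6 had 4.55, 564 and 15.5, ESRP1 had 31.2, 1249 and 72.2, and PADI6 had 3.25, 818 and 13.3. On the primordial and last arrays the means of FKBP6 and PADI6 were thus below the pseudocount of 16, which compresses their differences. Whether these genes lie as near to the zona genes with another pseudocount was not tested.

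Regulators and processing factors of the zona were measured only in part. Of 19 genes on that list 5 were on the array under these symbols and all 5 passed the filter. FIGLA and the other oocyte transcription factors of the list, ZP1, and the zona protease gene ASTL were not analysed here. OVGP1, an oviduct glycoprotein that binds the zona, was higher in the middle than in the primordial arrays by 1.05 ± 0.28 (limma adjusted p = 0.0121) and lower in the last arrays by -2.10 ± 0.28 (adjusted p = 0.00119). Its signal was 279.1 and 197.3, then 433.7 and 587.8, then 115.9 and 96.4. Of the list this was the only member of 5 called higher in the middle arrays, and 0 were lower, where 29.7% of all probe sets were called higher and 17.7% lower. That count was 2 without primordial replicate 1, and 0 higher and 1 lower without primordial replicate 2 or middle replicate 2. With each array centred on its median it was 0 higher and 1 lower.

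ID1 and ID3 encode proteins that block helix-loop-helix factors of the kind to which FIGLA belongs. ID1 was higher in the last than in the middle arrays by 1.98 ± 0.31 (limma adjusted p = 0.00275), the only list member of 5 higher there, where 7.29% of probe sets were called higher. Without last replicate 2 that count was 2, as it was with both scaling alternatives. From primordial to last ID1 (1.24 ± 0.31) and ID3 (1.38 ± 0.32) were higher and OVGP1 was lower (-1.04 ± 0.28), where 19.8% of all tested features were called higher and 13.4% lower. Without last replicate 2 the counts were 1 and 0, without primordial replicate 1 the lower count was 0, and without primordial replicate 2 the higher count was 1. ID2 did not pass in any of the 3 comparisons, at -0.39 ± 0.33, 1.08 ± 0.33 and 0.69 ± 0.33. Nor did TAF4B, a transcription cofactor needed for oocyte survival, at 0.04 ± 0.27, -0.45 ± 0.27 and -0.42 ± 0.27.

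Of 10 genes for other proteins with a ZP domain 4 were on the array and 1 passed the filter, ENG, a TGF-beta co-receptor of endothelium. Its middle and primordial arrays differed by 0.03 ± 0.25. On the last arrays it was higher than on the middle arrays by 0.91 ± 0.25 (limma adjusted p = 0.0348) and than on the primordial arrays by 0.94 ± 0.25 (adjusted p = 0.0181). The call against the middle arrays was lost without either middle replicate or last replicate 2. The call against the primordial arrays was lost without primordial replicate 2 or last replicate 2 and with median centring. DMBT1, a mucosal glycoprotein, was below the filter, at 67.9 and 65.2, then 94.2 and 114.2, then 76.1 and 59.8. Its middle arrays were the highest without overlap, but without the filter it did not pass, with 0.54 ± 0.35 from primordial to middle and -0.52 ± 0.35 from middle to last. GP2 (-0.28 ± 0.54 and 0.47 ± 0.54) and TGFBR3 (-0.08 ± 0.49 and 0.15 ± 0.49) did not pass in these comparisons either.

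Zona proteins are heavily glycosylated in the secretory pathway, so genes of glycosylation and folding were counted too, although all cells of the follicle express them. Of 24 genes 18 were on the array and all 18 passed. In the middle against the primordial arrays 2 were higher and 8 lower, with a median of -0.48 against 0.22 over all probe sets, of which 29.7% were called higher and 17.7% lower. The higher count was 4 with quantile normalization, 1 with median centring, and 1 without either primordial replicate or without middle replicate 2. FUT8, which adds the core fucose of N-glycans, was higher by 1.19 ± 0.19 (limma adjusted p = 0.0011), and OST4, a small subunit of the oligosaccharyltransferase, by 0.77 ± 0.20. PDIA3, a disulfide isomerase, was lower by -1.25 ± 0.18, and the sialyltransferases ST3GAL4 and ST6GAL1 by -1.38 ± 0.22 and -1.45 ± 0.23.

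From middle to last 3 of the 18 were higher and 0 lower by limma, where 7.29% of probe sets were called higher. They were ST3GAL4 (2.72 ± 0.22), the galactosyltransferase B4GALT1 (1.41 ± 0.16) and PDIA3 (0.76 ± 0.18), while DDOST, a subunit of the oligosaccharyltransferase, did not pass at 0.59 ± 0.19. From primordial to last 4 of the 18 were higher and 3 lower, where 19.8% of all tested features were called higher and 13.4% lower, so the higher share was near that of all probe sets. ST3GAL4 (1.34 ± 0.22), OST4 (0.83 ± 0.20), B4GALT1 (0.79 ± 0.16) and FUT8 (0.78 ± 0.19) were higher, and ST6GAL1 (-0.95 ± 0.23), the N-glycan branching enzyme MGAT1 (-0.76 ± 0.23) and the mannose-trimming enzyme MAN1A1 were lower. Without primordial replicate 1, and also without primordial replicate 2, the counts of this last comparison were 2 higher and 1 lower. With each array centred on its median they were 2 and 5.

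Markers of the follicle's cell types were set beside the titles, to see what else moved with the zona genes. Whether each sample held the stage of its title was not tested. The 8 oocyte markers other than zona genes had a summed signal of 12061.6 to 12369.3 on the middle arrays, 333 to 349.2 on the primordial arrays and 609.7 to 642 on the last arrays. No marker was at 0, but PADI6 was at 3.2 and 3.3 and DPPA5 at 4.9 and 6.3 on the primordial arrays, although primordial follicles hold an oocyte. The 12 granulosa markers on the array summed to 50748.4 to 65213.2 on the primordial, 31740.6 to 36024.6 on the middle and 66006.2 to 69966.6 on the last arrays. A sum follows its brightest probe sets, and single markers took other courses. Of the 8 granulosa markers tested 1 was higher and 4 were lower in the middle than in the primordial arrays, where 29.7% of all probe sets were called higher and 17.7% lower. The 4 lower ones were INHA, NR5A2, HSD17B1 and FST. Their mean signals on the primordial, middle and last arrays were 13718.5, 3021 and 13988.5 for INHA and 4175, 161 and 10142 for NR5A2. HSD17B1 had 10738, 5206 and 11383, and FST had 7641, 4165 and 11611.5. AMH, a hormone of granulosa cells in growing follicles, peaked in the middle arrays as the zona genes did, at 198.6 and 273, then 969.5 and 1763.9, then 106.6 and 112.7. It was higher by 2.41 ± 0.31 (limma adjusted p = 0.000289) and then lower by -3.40 ± 0.31 (adjusted p = 0.000135). FOXL2 and CYP19A1, also on the granulosa list, did not pass the filter, with FOXL2 at 6.9 to 41.7 and CYP19A1 at 11 to 52.2 over the 6 arrays.

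Markers of other cells also differed between the stages, and their counts for middle against primordial arrays stand against the same 29.7% called higher and 17.7% called lower. The 8 immune markers on the array summed to 18053.4 to 20166 on the primordial arrays, 1215 to 1686 on the middle and 1871.4 to 5142.9 on the last arrays, and all 6 of those tested were lower in the middle than in the primordial arrays. The 5 stromal markers summed to 689 to 913 on the primordial arrays, 11245.5 to 17506 on the middle and 10110.1 to 13267.3 on the last arrays, and 3 of 5 were higher in the middle than in the primordial arrays. These were DCN, LUM and FAP, and the sum followed DCN, with a mean of 12615.8 on the middle arrays. COL1A2 (0.66 ± 0.25) and COL3A1 (-0.84 ± 0.68) did not pass. The 4 surface epithelial markers summed to 350.5 to 467.5, 1346.6 to 1381.2 and 197.2 to 236.5 in the same order of stages. The 3 of them that were tested, KRT8, EPCAM and CDH1, were called higher in the middle than in the primordial arrays, a count that was 1 without primordial replicate 2, without middle replicate 1 and with median centring. All 3 were lower in the last than in the middle arrays, where 9.94% of probe sets were called lower. EPCAM, with means of 128.2 on the primordial and 26.7 on the last arrays, passed the filter of 91.3 only through its middle signal. KRT18, at 3.7 to 6.9 over the 6 arrays, fell below it, so these counts of 3 rest in part on the filter.

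Theca markers summed to 6021.2 to 6389.6, 3390.2 to 4699 and 19792.7 to 22867.8. The lower sum on the middle arrays came from CYP11A1, at 4673.4 and 4310.7, then 256.2 and 1090.2, and 3 of 6 theca markers were higher there than on the primordial arrays, namely INSL3 (2.36 ± 0.29), HSD3B1 (1.55 ± 0.41) and STAR (1.09 ± 0.30). CYP11A1 was the 1 called lower, a count that was 2 with median centring. Endothelial markers summed to 1346.3 to 1440.5, 719 to 841.7 and 2155.3 to 2832.6. The lower sum on the middle arrays came from PECAM1, at 968.7 and 893.5, then 195.8 and 258.3, the 1 called lower of 4 tested, with 0 called higher (1 without primordial replicate 2). CDH5 (0.63 ± 0.31), TEK (0.43 ± 0.32) and VWF (-0.33 ± 0.31) did not pass in that comparison. Smooth muscle markers summed to 3502.7 to 4300.4, 6660.3 to 7387.1 and 27157.6 to 27603.6. This sum followed ACTA2, with a mean of 5855.4 on the middle arrays. Of the 5 smooth muscle markers tested 3 were higher and 1 was lower in the middle than in the primordial arrays. The lower one was ACTG2 (-1.54 ± 0.31), with means of 275.2, 82.3 and 4498.3 in order of stage. The 2 erythroid markers summed to 738.5 to 812.8, 1678.7 to 1770.9 and 1186.7 to 1399.1. The part of these markers in the zona differences was not tested.

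A control for RNA quality compares the 3′ and 5′ ends of a transcript, and a larger excess of the 3′ signal goes with shorter labelled RNA. For actin the excess was 4.60 ± 0.54 (log2, SD, n = 2) on the middle arrays, 3.38 ± 0.25 on the primordial and 3.73 ± 0.23 on the last arrays. In the same order GAPDH gave 3.04 ± 0.35, 3.06 ± 0.53 and 1.88 ± 0.02, and EF1A gave 1.10 ± 0.33, 0.84 ± 0.24 and 0.76 ± 0.09. The part of this in the zona differences was not tested.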

How the data were processed

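The authors deposited 1 linear intensity per probe set and array, made with GCOS per the submitters' processing notes, which name no version. A mean of each array's deposited intensity values, trimmed of 2% at either end, came to 500.1 on all 6 arrays. RNA was extracted with Trizol and biotin-labelled, per the labels' protocols.

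Of 24123 probe sets 124 controls were left out. Values were taken as log2(signal + 16), the dimmest 40% by mean signal were left out, and limma 3.58.1 (lmFit, then eBayes with trend; R 4.3.3) was fitted to all 6 arrays without a block, two-sided. The fit was tested on simulated data. Tables and figures used Python 3.11.15, pandas 2.3.3, numpy 2.4.6 and matplotlib 3.10.9.

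The zona genes, the lists and the rules were chosen with earlier results of these data known. The text names the zona genes, for each list the 4 members with the smallest p in a comparison and any that went the other way, and the 5 genes most like each zona gene. A list uses the brightest probe set of a gene. Alternatives were the pseudocount (1 and 64), the filter (none and 60%), quantile normalization, centring on the median, no trend, a fit of 4 arrays, the mean of a gene's probe sets (for lists), a replicate block and leaving out each array.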

Additional observations from a re-analysis of the deposited data

How the results depend on the processing

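For the 3 zona genes 174 of 174 alternative values of middle minus primordial, last minus middle, middle minus the other stages and the F-test kept their direction and their side of the threshold. In last minus primordial 0 reversed. ZP4 lost its call at 0.57 (pseudocount 64), 0.65 (quantile normalization), 0.64 (median centring) and 0.86 (4 arrays), and leaving out arrays gave 0.78 to 0.94. ZP3 gained a call at 0.74 (pseudocount 1) and 0.64 (no intensity trend). The cause was not tested. Leaving out 1 array gave 4356 to 7189 calls in middle minus primordial, 727 to 2172 in last minus middle, 2730 to 4297 in last minus primordial and 2037 to 5320 in middle minus the other stages, from fewer samples; the lone array left in a stage was assumed to vary like the others.

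Counts of list members moved as follows. In the list of zona regulators, middle minus primordial had 2 higher with quantile normalization, and 0 higher and 1 lower with median centring (0 to 2 and 0 to 1 over left-out arrays). Last minus middle had 2 higher with a pseudocount of 64, quantile normalization and median centring (1 to 2 over left-out arrays), and last minus primordial had 1 to 2 higher and 0 to 1 lower over left-out arrays. For the other ZP domain proteins 0 were higher in last minus middle with no filter and with the replicate block, and 0 in last minus primordial with median centring (0 to 1 over left-out arrays in each). For the other oocyte genes 2 were higher in last minus middle in the fit of 4 arrays (0 to 2 over left-out arrays), and in last minus primordial 2 with quantile normalization and 1 in the fit of 4 arrays (1 to 3 over left-out arrays). For glycosylation and folding, middle minus primordial had 4 higher with quantile normalization and 1 with median centring (1 to 2 over left-out arrays), and last minus primordial had 2 higher and 5 lower with median centring (2 to 4 and 1 to 3 over left-out arrays).

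Replicate numbers are shared by the stages, but nothing says that a number marks a shared animal or day. Deviations of replicate 1 from the stage mean correlated across probe sets at 0.06 for primordial and middle. They correlated at -0.05 for middle and last and at 0.03 for primordial and last. These values show little common deviation of arrays with the same number. A shared animal or day need not leave one, so whether such samples share a source was not tested. With the replicate block the zona differences were unchanged, for example 5.71 ± 0.28 for ZP2 in middle minus primordial (limma adjusted p = 2.2e-05), and no call of theirs changed. On each array 12.8% to 18.0% of probe sets read 16 or less, a range in which the pseudocount compresses differences.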

Other observations

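The genes next to the zona genes in the RefSeq gene order of the Sscrofa11.1 assembly were looked at after the values were seen, up to 3 protein-coding genes to each side and without the filter on dim probe sets. Of these, 7 had a probe set with 1 symbol. ANKS4B, a scaffold protein gene adjacent to ZP2, had a signal of 82.7 and 94.5 on the middle arrays, 15.2 and 2.6 on the primordial and 6.3 and 9.3 on the last arrays. It was higher in the middle than in the primordial arrays by 2.12 ± 0.39 (limma adjusted p = 0.00464) and lower in the last than in the middle arrays by -2.14 ± 0.39 (adjusted p = 0.0133). LYRM1, on the other side of ZP2, was higher in the middle than in the primordial arrays by 0.67 ± 0.19 (adjusted p = 0.0319) and higher by 0.16 ± 0.19 in the last than in the middle arrays, which did not pass.

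MTR, the methionine synthase gene near ZP4, had 80.9 and 81.3 on the middle arrays, 24.4 and 12 on the primordial and 34.2 and 47.8 on the last arrays, with a difference of 1.53 ± 0.38 for middle minus primordial (limma adjusted p = 0.0177) and -0.78 ± 0.38 for last minus middle (adjusted p = 0.257). RYR2, adjacent to ZP4, did not pass in either, at 0.85 ± 0.42 and -0.56 ± 0.42. Nor did ACTN2, at -0.05 ± 0.33 and -0.39 ± 0.33, or UPK3BL2 near ZP3, at 0.25 ± 0.63 and -1.41 ± 0.63. HSPB1, a small heat shock protein gene near ZP3, went the other way, at -1.67 ± 0.30 and 1.31 ± 0.30.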
